A study of Sus scrofa with 12 samples.

Results

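The circadian clock genes considered here are PER1, PER2, PER3, CRY1, CRY2, CLOCK, ARNTL, NR1D1, NR1D2 and DBP, and their transcripts were read in the livers of 12 suckling piglets. A gene was included when a transcript of the array carried its symbol as the only gene symbol in the annotation. Of the 10 genes, 7 were found, each with 1 transcript, among 12307 named genes and 25388 transcripts in all. PER3, NR1D1 and NR1D2 were not analysed here, so the repressor that acts directly on ARNTL is missing from the set. The piglets were suckling offspring of hybrid sows and Pietrain boars, were scored on day 3 of life for the swine inflammation and necrosis syndrome (SINS), and were killed under ketamine and azaperone anaesthesia after scoring. The SINS low group (n = 6) held piglets with no or only low-grade signs and the SINS high group (n = 6) piglets with high-grade signs, such as swelling and loss of bristles at the tail base. The piglets were picked as the extremes of a larger herd sample, no treatment was given to either group, and the labels describe both groups as mixed-sex without the sex of each piglet. Liver of the left medial lobe was used, with 1 array per piglet.

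The clock of a mammalian cell is a loop of transcription and feedback with a period of about a day. ARNTL (also called BMAL1) and CLOCK pair to form the activator, which switches on the PER and CRY genes and the output gene DBP, and PER and CRY proteins return to the nucleus and block the activator. In the liver of adult mice, ARNTL RNA is high when DBP and PER RNA are low, whereas CLOCK RNA varies little, so mouse livers taken at different times of day show ARNTL high where DBP and PER are low. Hepatic clock genes also answer to other signals: PER1 is a direct target of the glucocorticoid receptor in mouse and human cells, and feeding shifts the phase of the whole loop in mouse liver. The time of day at which each liver was taken is not given in the sources used here. The sample titles carry a second number besides the replicate number, which was higher in every SINS low piglet than in any SINS high piglet. What this number stands for is not stated, so whatever goes with it cannot be told apart from the group.

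The values are log2 values made by the authors with RMA, so a step of 1 is a doubling, and levels are compared here only between livers and not between genes. The median value per array ranged from 4.36 to 4.42 and the correlation between arrays from 0.964 to 0.988. Of 7 hepatocyte markers listed, the 4 measured (ALB, APOA1, SERPINA1, FGB) lay between 11.6 and 12.7 on average, and 0 of them passed the study's filter (fold change over 1.3, unadjusted p under 0.05) in either direction with limma or the methods' t-test, nor did any reach an unadjusted p below 0.05. Erythroid markers moved with the group, as all 4 measured of 6 listed passed the filter as higher in the SINS high group with limma and 3 with the methods' t-test, where 2.12% of all transcripts were higher by limma, with a mean over the list of 3.61 to 5.04 in the SINS low livers and 4.76 to 5.70 in the SINS high livers. Of the neutrophil markers 1 of 4 and of the Kupffer cell markers 1 of 4 measured was higher, with limma, while 0 of the 13 measured markers of endothelium, bile duct, stellate cells and lymphocytes passed with limma or the methods' t-test (0 at an unadjusted p below 0.05 by either), and no measured marker was at 0. In whole liver, fewer cells of a type and less RNA per cell cannot be told apart. The part of these cells in the clock gene values was not tested.

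DBP, the output gene of the loop, was higher in the SINS high group, and it was the only 1 of the 7 clock genes to pass the filter with limma. Over all transcripts 5.16% passed this filter in either direction, 2.12% as higher and 3.04% as lower. Over the named genes the shares were 6.1%, 2.3% and 3.8%, so that a single call among 7 genes lies close to the background. PER1 and PER2, the inducible repressors, had positive differences in the SINS high group and CRY1, the partner repressor, a negative one, but none of these passed the filter, nor did ARNTL, CLOCK or CRY2. The median log2(FC) of the 7 genes, positive where SINS high was higher, was 0.23, with 5 values above and 2 below 0, against a median of 0.01 over all transcripts. No clock gene passed after adjustment over all transcripts by the method of Benjamini and Hochberg, where the smallest adjusted p of any transcript was 0.254.

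**Figure D1:**
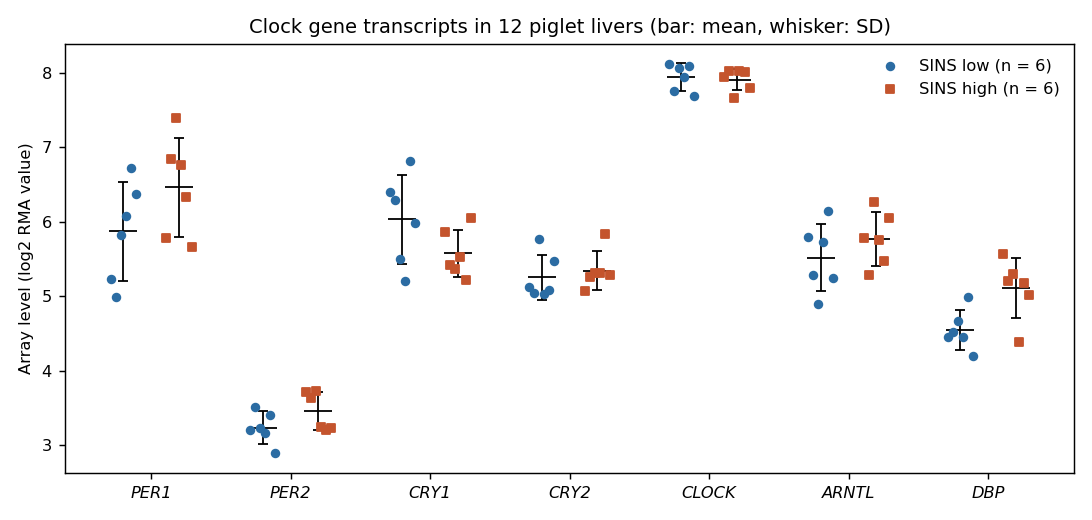
Log2 RMA values (vertical axis) of the 7 measured clock genes (horizontal axis) in single livers, blue circles for SINS low and orange squares for SINS high (n = 6 each), with the mean as a bar and the SD as whiskers. In DBP 5 of the 6 SINS high livers lie above every SINS low liver, while the groups overlap widely in the other genes.

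DBP encodes a PAR-family leucine zipper factor that binds D-box elements and carries the rhythm of the clock to liver enzymes. Its values in the SINS low livers had a lowest of 4.20, a median of 4.49 and a highest of 4.99, and those in the SINS high livers a lowest of 4.38, a median of 5.19 and a highest of 5.57. The groups overlapped through 1 liver, SINS high replicate 4 at 4.38, while the other 5 SINS high livers lay above all 6 SINS low livers. The mean was 4.55 ± 0.26 in the SINS low group and 5.11 ± 0.40 in the SINS high group (SD, n = 6), a log2(FC) of 0.56 (standard error 0.18, 95% interval 0.18 to 0.94) or a fold change of 1.47. Limma gave an unadjusted p of 0.00662 and an adjusted p of 0.302, and the exact permutation test over all 924 assignments of the piglets gave a two-sided p of 0.026. By its unadjusted p, DBP ranked at position 557 of the 25388 transcripts. The difference kept its sign and passed the filter in each of the 12 fits that left out 1 array, with a log2(FC) between 0.47 without SINS high replicate 1 and 0.71 without SINS high replicate 4. It did not pass a stricter fold change of 1.5. Although DBP passed here with the methods' t-test as well, the paper's list of up-regulated transcripts does not name it.

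The repressors PER1 and PER2 are the members of the loop that are induced most readily by light, hormones and feeding in mice. PER1 had a lowest of 4.99, a median of 5.96 and a highest of 6.72 in the SINS low livers, and a lowest of 5.66, a median of 6.55 and a highest of 7.39 in the SINS high livers. Of the SINS high livers 3 lay above every SINS low liver and of the SINS low livers 2 lay below every SINS high liver, but the remaining livers overlapped. The group means were 5.87 ± 0.67 and 6.46 ± 0.67 (SD, n = 6), with a log2(FC) of 0.59 (standard error 0.33, 95% interval −0.11 to 1.3) that was larger than that of DBP in size but less certain. Its exact permutation test gave a two-sided p of 0.16 and limma an adjusted p of 0.518. The call for PER1 turned on single livers, since it passed the filter without SINS low replicate 5 (0.76), SINS high replicate 6 (0.75) or SINS high replicate 1 (0.73). PER2 lay between 2.89 and 3.52 in the SINS low livers and between 3.21 and 3.73 in the SINS high livers. SINS high replicates 1, 2 and 3, at 3.63 to 3.73, lay above all SINS low livers, and the log2(FC) of PER2 was 0.23 (standard error 0.13, 95% interval −0.06 to 0.51, exact permutation p = 0.119).

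CRY1 and CRY2 encode the cryptochromes, which lack the light sensing of their plant and insect relatives in mammals and act as the strong repressors of the loop. CRY1 had a lowest of 5.21, a median of 6.14 and a highest of 6.82 in the SINS low livers, against a lowest of 5.22, a median of 5.48 and a highest of 6.05 in the SINS high livers. Of the SINS low livers 3 lay above every SINS high liver, while SINS low replicates 3 and 6 at 5.50 and 5.99 sat among the SINS high livers and SINS low replicate 4 at 5.21 lay just below them all. The log2(FC) of CRY1 was −0.46 (standard error 0.24, 95% interval −0.97 to 0.06) with an exact permutation p of 0.126 (two-sided). It passed the filter without SINS low replicate 4 (−0.62), SINS low replicate 3 (−0.57) or SINS high replicate 6 (−0.55). CRY1 was more scattered among the SINS low livers (SD 0.60) than among the SINS high livers (SD 0.32), a difference that was not tested. CRY2 went from 5.03 to 5.77 in the SINS low livers and from 5.07 to 5.84 in the SINS high livers, with a log2(FC) of 0.09 (standard error 0.15, 95% interval −0.23 to 0.42). SINS high replicate 5 held the highest CRY2 value, and without this liver the log2(FC) was −0.01.

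The activators ARNTL and CLOCK had no group difference larger than the spread between livers. ARNTL had a lowest of 4.90, a median of 5.51 and a highest of 6.15 in the SINS low livers, and a lowest of 5.29, a median of 5.78 and a highest of 6.27 in the SINS high livers. Its log2(FC) was 0.25 (standard error 0.21, 95% interval −0.19 to 0.70, exact permutation p = 0.307), so that ARNTL and its target DBP both had positive values. CLOCK was the steadiest of the 7 genes, between 7.69 and 8.12 in the SINS low livers and between 7.67 and 8.02 in the SINS high livers. Its log2(FC) was −0.04 (standard error 0.10, 95% interval −0.25 to 0.18), and without SINS high replicate 3 it was 0.01.

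**Figure D2:**
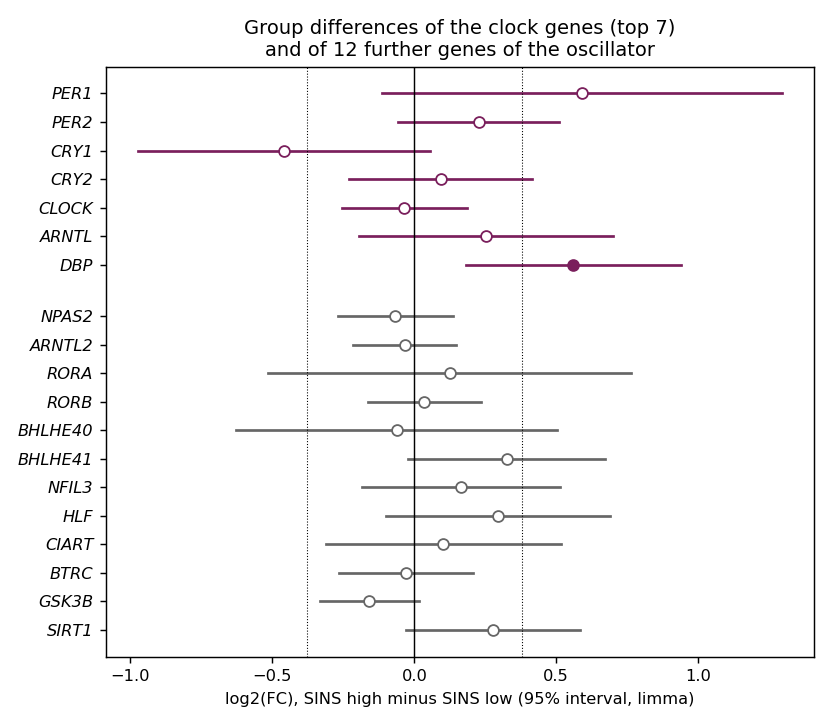
Log2(FC), SINS high minus SINS low (horizontal axis), with the 95% interval from limma, for the 7 clock genes (purple) and 12 further genes of the oscillator (grey), 6 livers per group, where filled points passed the filter and dotted lines mark a fold change of 1.3. Among the 19 genes only the interval of DBP, 0.18 to 0.94, excludes 0.

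Within the groups, most clock genes varied more from liver to liver than the usual transcript. The SD between livers within groups was 0.67 for PER1, higher than that of 98.2% of all transcripts. It was 0.48 for CRY1 and 0.41 for ARNTL, at the 94.5 and 91.3 percentiles, and 0.34 for DBP at the 84.7 percentile. CRY2 at 0.28 (73.9 percentile) and PER2 at 0.24 (60.1 percentile) followed, while CLOCK at 0.16 lay at the 25.3 percentile. Over all 12 livers the span from lowest to highest was 5.28-fold for PER1, 3.05-fold for CRY1, 2.58-fold for ARNTL and for DBP, and 1.37-fold for CLOCK. A transcript's SD also depends on its brightness and its probes, so these ranks are a description.

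The order of phases known from adult mouse liver were looked for across the 12 livers, with Pearson's r and Spearman's rho for all 21 pairs of the 7 genes. After adjustment over the 21 pairs 0 had a p below 0.05, and 1 had an unadjusted permutation p below 0.05. This pair was PER2 and DBP, both targets of the activator, with r = 0.75 (permutation p = 0.00599, adjusted p = 0.126) and rho = 0.72 (permutation p = 0.0105, adjusted p = 0.22). The relation had the same sign in both groups, with r = 0.69 in the SINS low livers (exact p = 0.112) and r = 0.67 in the SINS high livers (exact p = 0.11), and r was 0.56 without the 2 livers farthest from the median of PER2. SINS high replicates 1, 2 and 3 had the highest DBP and PER2 values of the 12 livers, and SINS low replicate 6 had the lowest of both.

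ARNTL did not lie opposite to DBP, PER1 or PER2 across these livers. ARNTL had r = 0.36 with DBP (permutation p = 0.257), r = 0.31 with PER2 (p = 0.328) and r = 0.32 with PER1 (p = 0.314), all positive in sign, with adjusted p-values of 0.824. Their rho values were 0.34 with DBP (permutation p = 0.28), 0.35 with PER2 (p = 0.26) and 0.14 with PER1 (p = 0.66). Without the 2 livers farthest from the PER1 median, r of PER1 with ARNTL was −0.09, so this relation had no stable sign. Within groups, r of ARNTL with DBP was 0.43 among the SINS low and 0.03 among the SINS high livers. SINS low replicate 5 and SINS high replicate 3 were high in ARNTL (6.15 and 6.27) and also in PER1 (6.72 and 7.39), each the highest value of its group in both genes. PER1 and DBP, which peak close together in mouse liver, had r = 0.29 (permutation p = 0.353) and rho = 0.18 (p = 0.571), and −0.00 for r when group means were subtracted. PER1 and PER2 had r = 0.21 (permutation p = 0.507) and rho = 0.28 (p = 0.375).

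**Figure D3:**
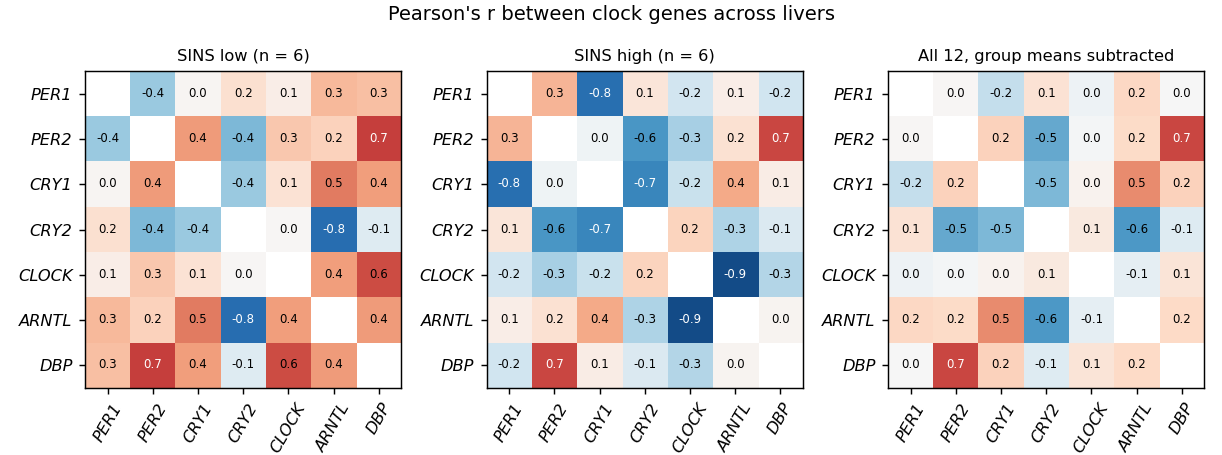
Pearson's r between the 7 clock genes (rows and columns) among the SINS low livers, among the SINS high livers (n = 6 each) and over all 12 livers with group means subtracted, from blue at −1 to red at 1. PER2 with DBP is red in all 3 panels (0.69, 0.67 and 0.67), and 12 of the 21 pairs have the same sign in both groups.

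ARNTL had negative values of r with CRY2 in both groups, −0.76 among the SINS low and −0.31 among the SINS high livers, and −0.48 over all 12 livers (permutation p = 0.116, rho = −0.25, p = 0.439). With CRY1 its r was 0.25 (permutation p = 0.435, rho = 0.24, p = 0.453), and −0.09 without the 2 livers farthest from the CRY1 median. With CLOCK, its partner in the activator, r was −0.12 (permutation p = 0.699, rho = −0.00, p = 0.998). This r was 0.42 among the SINS low livers (exact p = 0.379) and −0.90 among the SINS high livers (exact p = 0.0111, adjusted p = 0.233 over the 21 pairs). Only 12 of the 21 pairs had the same sign in both groups. Over all livers, r of CLOCK with ARNTL was 0.16 without SINS high replicate 3. With 12 livers of unknown sampling time, the absence of a passing relation does not show that the genes vary independently.

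The list of 20 further genes of the oscillator had 12 members with a measured transcript, and 0 of these passed the filter in either direction with limma or the methods' t-test. The count leaves out TIMELESS, a listed gene with no transcript matched here, which the paper lists as down-regulated in the SINS high group. At an unadjusted p below 0.05 the 12 measured genes had 0 with limma and 1 with the methods' t-test, with a median log2(FC) of 0.07. GSK3B, a kinase that phosphorylates clock proteins, lay at −0.16 on this scale (standard error 0.08, 95% interval −0.33 to 0.02, exact permutation p = 0.0152), and all 6 SINS high livers lay below the SINS low mean. BHLHE41, a repressor of the activator, had 0.33 (standard error 0.16, exact permutation p = 0.0866), and SIRT1, a deacetylase of clock proteins, 0.28 (standard error 0.14, exact permutation p = 0.102). HLF, a PAR-family factor like DBP and named here after its values were seen, had 0.30 (standard error 0.18, 95% interval −0.10 to 0.69). Its r with DBP was 0.70 (permutation p = 0.00888, adjusted p = 0.239 over 364 relations; rho = 0.64, p = 0.028), and 0.72 without the 2 livers farthest from the DBP median. SINS high replicates 1 and 3 were the highest livers in both HLF (7.19 and 7.32) and DBP (5.57 and 5.30). NPAS2, a stand-in for CLOCK in the activator, showed its closest relation among the 7 genes to CLOCK, with r = 0.64 (permutation p = 0.018, adjusted p = 0.266; rho = 0.70, p = 0.0142) and 0.51 without the 2 livers farthest from the CLOCK median.

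**Figure D4:**
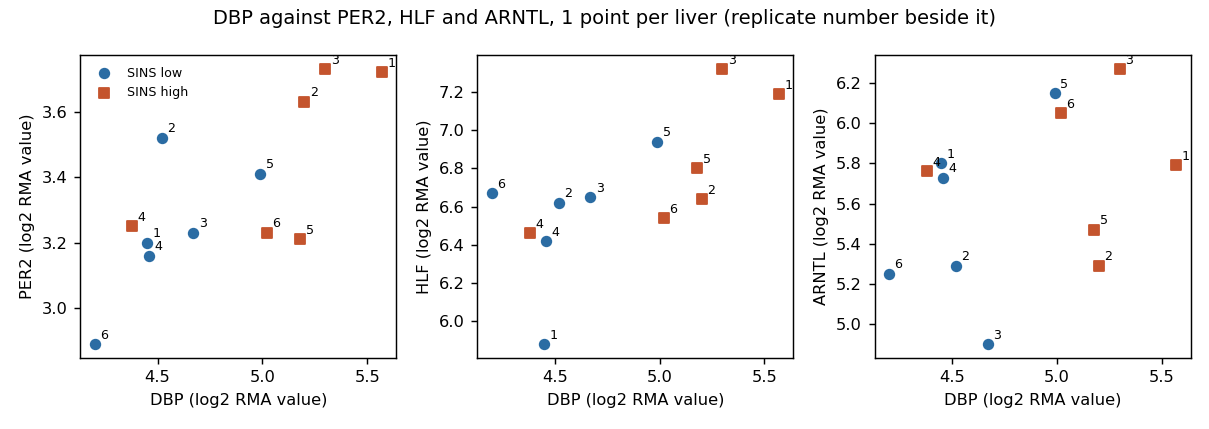
DBP (horizontal axes, log2 RMA value) against PER2, HLF and ARNTL (vertical axes, log2 RMA value), 1 point per liver with its replicate number, blue circles for SINS low and orange squares for SINS high. PER2 and HLF are high in the SINS high livers 1 and 3 that lead in DBP (r = 0.75 and 0.70 over 12 livers), while ARNTL shows no fall as DBP rises (r = 0.36).

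Genes that follow the clock in mouse liver were as little separated by group. Of 18 listed, 13 were measured and 0 passed the filter in either direction with limma or the methods' t-test, with 0 at an unadjusted p below 0.05 by either and a median log2(FC) of 0.04. WEE1, the cell cycle kinase under direct control of the activator in mice, had −0.47 (standard error 0.34), the cell cycle inhibitor CDKN1A −0.33 (standard error 0.25) and the fatty acid elongase ELOVL3 0.13 (standard error 0.11).

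Since PER1 also answers to hormones and feeding, 4 further lists were read beside it. The counts below stand against 2.12% of all transcripts that passed the filter as higher and 3.04% as lower with limma. Of 7 measured glucocorticoid-responsive genes of 13 listed, 1 was higher, 0 were lower and 6 did not pass the filter. The one that passed was TAT, the tyrosine aminotransferase, with a log2(FC) of 0.52 (standard error 0.21, adjusted p = 0.37 from limma, exact permutation p = 0.0584). DUSP1, a phosphatase, had −0.52 (standard error 0.30) and TSC22D3, a leucine zipper protein, 0.25 (standard error 0.18). Of 6 measured genes of the response to fasting and feeding 0 passed in either direction with limma or the methods' t-test (0 at an unadjusted p below 0.05 by either), with PCK1, the gluconeogenic enzyme, at 0.34 (standard error 0.24), PDK4, which restrains glucose oxidation, at 0.61 (standard error 0.53), and the transcription factor FOXO1 at 0.15 (standard error 0.19). Of 5 measured temperature-responsive genes 3 were lower in the SINS high group and 0 higher, the chaperones HSPH1 (−0.78, standard error 0.29), DNAJB1 (−0.53, standard error 0.19) and HSPA8 (−0.51, standard error 0.18). Of 9 measured immediate early genes 2 were lower and 0 higher, JUN (−0.66, standard error 0.22) and ATF3 (−0.56, standard error 0.17), while BTG2 had 0.32 (standard error 0.16).

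The closest relation of a clock gene to a gene of these lists was that of PER1 to TAT. Each of the 7 clock genes was set against each of the 52 measured genes of the other 6 lists, which gave 364 relations, and 1 of them, PER1 with TAT, passed after adjustment over all of them. PER1 and TAT had r = 0.88 (permutation p = 0.00011, adjusted p = 0.04) and rho = 0.82 (permutation p = 0.00206, adjusted p = 0.207). The relation was r = 0.97 among the SINS low livers (exact p = 0.00556) and r = 0.73 among the SINS high livers (exact p = 0.124), and r = 0.81 without SINS low replicate 2 and SINS high replicate 3, the livers farthest from the PER1 median. When group means were subtracted, r was 0.85 and its adjusted p was 0.254. In the livers, SINS low replicates 1 and 2 were lowest in both PER1 (5.23 and 4.99) and TAT (10.02 and 9.77), and SINS high replicates 2 and 3 were the highest in PER1 (6.85 and 7.39) with TAT at 11.14 and 11.22.

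The other genes of this list gave values on the same side, though none passed the adjustment over the 364 relations. PER1 had r = 0.83 with TSC22D3 (permutation p = 0.00127, adjusted p = 0.231; rho = 0.83, p = 0.00168). With KLF9, a zinc finger factor, r was 0.74 (permutation p = 0.00594, adjusted p = 0.239; rho = 0.80, p = 0.00268), and with FKBP5, a co-chaperone of the glucocorticoid receptor, 0.70 (permutation p = 0.0124, adjusted p = 0.239; rho = 0.71, p = 0.0121). Without the same 2 livers these were 0.81 for TSC22D3, 0.76 for KLF9 and 0.63 for FKBP5. These 3 relations were also positive in each group on its own, from 0.61 to 0.64 among the SINS low livers and from 0.83 to 0.96 among the SINS high livers. DUSP1 and ANGPTL4 of the same list had only 0.19 and 0.26 (permutation p = 0.55 and 0.412; rho = 0.22, p = 0.498, and rho = 0.38, p = 0.227). All 7 genes of the list had a positive r with PER1 after subtraction of the group means, with a median of 0.74. The 12 further oscillator genes had a median of 0.35 with PER1, but of mixed sign, from −0.71 to 0.67 (9 positive). With the 7 glucocorticoid-responsive genes the median was −0.43 for CRY1 (0 positive), −0.15 for PER2 and −0.06 for CLOCK. It was 0.03 for ARNTL and for DBP, and 0.26 for CRY2. Genes of other lists also lay close to PER1 on the same scale, such as IGFBP1 (0.75) and PCK1 (0.68) of the feeding list, whose median was 0.42, and USP2 (0.74) of the clock output list. Of the 48 relations with an unadjusted p below 0.05 among all 364, PER1 had 21, DBP 8, PER2 and CRY1 7 each, CLOCK 3, and ARNTL and CRY2 1 each. The 21 of PER1 were 7 further oscillator genes, 5 glucocorticoid-responsive, 4 clock output, 3 temperature-responsive and 2 feeding genes. The genes of a list vary together and share the same arrays, so these counts are not independent relations. Corticosteroid levels of the piglets were not analysed here.

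**Figure D5:**
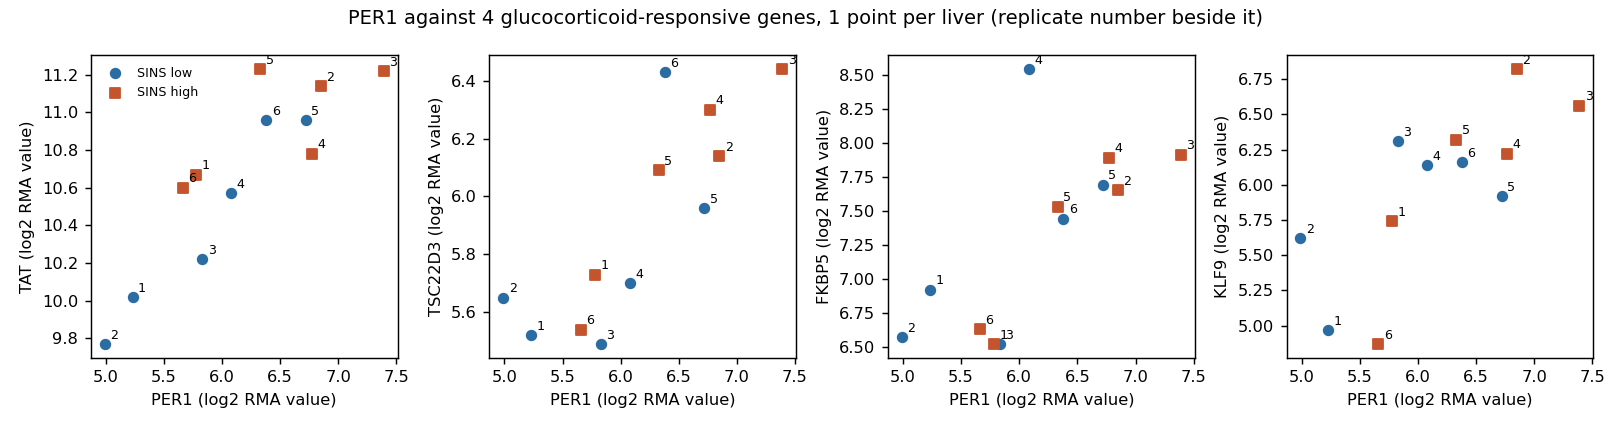
PER1 (horizontal axes, log2 RMA value) against TAT, TSC22D3, FKBP5 and KLF9 (vertical axes, log2 RMA value), 1 point per liver with its replicate number, blue circles for SINS low and orange squares for SINS high. Livers with more PER1 RNA tend to have more RNA of each gene in both groups, with r over 12 livers of 0.88, 0.83, 0.70 and 0.74.

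PER1, PER2 and DBP each had 3 relations with an unadjusted p below 0.05 among the 5 temperature-responsive genes, and none passed the adjustment. HSF1, the transcription factor that drives the heat shock response, had r = −0.75 with PER2 (permutation p = 0.00572, adjusted p = 0.239 over 364 relations; rho = −0.76, p = 0.00549) and r = −0.70 with DBP (permutation p = 0.0142, adjusted p = 0.247; rho = −0.73, p = 0.00971). Both were negative in each group, at −0.44 and −0.93 for PER2 and at −0.74 and −0.48 for DBP among the SINS low and the SINS high livers, and they were −0.64 and −0.61 without the 2 livers farthest from the median of PER2 or of DBP. HSPH1 was also negative over all livers, with r = −0.74 for PER1 (permutation p = 0.00563, adjusted p = 0.239; rho = −0.66, p = 0.0226), −0.63 for DBP (permutation p = 0.0223, adjusted p = 0.279; rho = −0.64, p = 0.0278) and −0.60 for PER2 (permutation p = 0.0374, adjusted p = 0.332; rho = −0.55, p = 0.0665). HSPH1 was lower and DBP higher in the SINS high group, so r over all livers also holds the group difference. With group means subtracted, r of HSPH1 was −0.66 with PER1, −0.40 with DBP and −0.46 with PER2. Among the SINS low livers alone, r of PER2 with HSPH1 was 0.02. CIRBP, a cold-inducible RNA-binding protein, had r = 0.61 with PER2 (permutation p = 0.0278, adjusted p = 0.298; rho = 0.36, p = 0.241), which was 0.03 without SINS high replicates 1 and 3. CIRBP was at 8.66 in SINS high replicate 3, above the 7.07 to 7.79 of the other 11 livers. Body temperatures of the piglets were not analysed here. The list holds chaperones, a regulator of the heat shock response and a cold-inducible gene together, so counts over it are not a measure of temperature.

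A search over the other 12306 named genes, with group means subtracted, gave the genes whose values were most like those of PER1, the clock gene with the widest spread, and of ARNTL. For PER1 these were IZUMO1 (r = 0.89), SLC38A2 (0.89), GABRA5 (0.86), GNRH1 (0.86) and CEBPD (0.86) over the 12 livers. Of the glucocorticoid-responsive genes, TAT was in position 7 (0.85), TSC22D3 in position 20, FKBP5 in 58, KLF9 in 72 and SDS in 87. DUSP1 and ANGPTL4 of the same list were in positions 1226 and 1901. Genes of other lists also ranked high, such as IGFBP1 in position 61 and USP2 in position 71. SLC38A2 encodes an amino acid transporter of the cell membrane and CEBPD a transcription factor of the acute phase. Most opposite to PER1 were RRAS (−0.91), EPS15L1 (−0.90) and SKIV2L2 (−0.90). For ARNTL the most alike were SKIV2L (0.88), CDC40 (0.88), ZCCHC14 (0.87), HECTD4 (0.87) and LOC100158108 (0.85), and the most opposite TCTE1 (−0.87), NTHL1 (−0.83) and IRGC (−0.82). These are the extremes of 12306 values over 12 livers and are given as a description. Among them GNRH1 (mean 1.73), GABRA5 (2.35) and LOC100158108 (1.45) were dim, below the lower quartile of the means of all transcripts (2.87). Of the genes described further above, BHLHE41 (mean 2.58) and ELOVL3 (2.56) also lay below this line. PER2 (3.35, at the 32.7 percentile of all transcripts) lay above it but was the dimmest of the 7 clock genes.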

How the data were processed

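The deposited values are log2 values made by the authors with RMA in the Affymetrix Expression Console (background correction, normalization across arrays and 1 summary value per transcript), given to 2 decimals; the software versions are not given in the sources used here. They were used without further scaling. RMA makes the arrays alike in distribution, so a shift shared by all transcripts of a liver would not be seen.

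Symbols came from the platform annotation. Of 25388 transcripts, 13257 had 1 symbol, 427 several and 11704 none, and the transcript with the highest mean stood for a gene. A linear model with the group as its only term was fitted to every transcript in R 4.3.3 (limma 3.58.1, moderated by eBayes), with Benjamini-Hochberg adjustment over all transcripts. Each p of a correlation is from 100000 resamples of the livers, or from all 720 pairings within a group (Python 3.11.15, numpy 2.4.6). For values with group means subtracted, livers were resampled within their group. The model fit was tested on simulated data. All measured clock genes are named. From each other list the genes that passed the filter and, up to 3 in all, those with the smallest p are named. Further ones (HLF, NPAS2, KLF9, FKBP5, ANGPTL4, SDS, IGFBP1, USP2, HSF1, CIRBP) were chosen after their values were seen, and TIMELESS is named from the paper. Members and lists were chosen with earlier results of these data known.

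The alternatives were the methods' t-test, an intensity trend with robust eBayes, array weights, median centring, quantile normalization once more, leaving out the dimmest 25% of transcripts, a fold change of 1.5, a replicate block and leaving out each array. The number of arrays limits the precision. The labels do not state which piglets were littermates, so p-values take the piglets as independent.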

Additional observations from a re-analysis of the deposited data

Results flagged for a closer look

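A sample far from the other 5 of its group was looked for in the 25 genes named by the rule above, that is in 50 groups of 6 livers, and 5 were found by Dixon's criterion, which chance meets in about 1 in 20 groups. CRY2 was at 5.84 in SINS high replicate 5, where the other SINS high livers lay between 5.07 and 5.32. DUSP1 was at 8.32 in SINS high replicate 3, with the others between 6.38 and 7.08, and this liver also had the highest PER1 value of all, 7.39. JUN was at 7.68 in SINS low replicate 4, with the others between 5.99 and 6.58. PDK4 was at 5.67 and PCK1 at 9.28 in SINS high replicate 6, where the other SINS high livers lay between 8.43 and 9.39 for PDK4 and between 10.09 and 10.55 for PCK1. The same liver had the lowest PER1 value of its group, 5.66.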

How the results depend on the processing

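The log2(FC) of DBP stayed between 0.47 and 0.71 and passed the filter in all alternatives except a fold change above 1.5, which left 0 of the 7 clock genes called, and 165 transcripts called as higher and 251 as lower. Adjusted p-values of DBP ranged from 0.15 to 0.534. When each array was left out in turn, 1 to 3 clock genes, 428 to 893 higher and 550 to 1254 lower transcripts were called, and 0 to 171 transcripts had an adjusted p below 0.05, the highest counts all without SINS high replicate 6. The added calls were CRY1 without SINS low replicates 3 or 4, PER1 without SINS low replicate 5 or SINS high replicate 1, and both without SINS high replicate 6. Left out singly, arrays gave a log2(FC) of −0.086 to 0.013 for CLOCK and −0.00533 to 0.197 for CRY2, which changed sign without SINS high replicate 3 and SINS high replicate 5. Of the 21 pairs of clock genes 0 or 1 passed, the 1 being PER2 with DBP without SINS low replicate 2 or SINS high replicate 5. Leaving out arrays gave r between −0.0583 and 0.389 for PER1 with PER2 and between −0.315 and 0.163 for CLOCK with ARNTL (0.0507 without SINS low replicate 3). Without the 2 livers farthest from the median, r was −0.091 for PER1 with ARNTL and −0.0912 for CRY1 with ARNTL, and with group means subtracted −0.00095 for PER1 with DBP. For the relation of PER1 with TAT the alternatives were chosen after seeing the data. Its r lay between 0.83 and 0.92 over the fits without 1 array, with an unadjusted permutation p of up to 0.00142. These p-values were not adjusted over all relations, so whether the call held in those fits was not tested. The relation of PER1 with TAT lost its call with group means subtracted (0.85). The causes of these changes were not tested.

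The replicate numbers in the titles mark different piglets, and the deviations of equal-numbered livers correlated between −0.00 and 0.34. With a replicate block, the log2(FC) of DBP was 0.56, with a p of 0.00475 and an adjusted p of 0.18, 1 clock gene was called, and 628 and 850 transcripts were called higher and lower. The block changed no other call of a clock gene. The mean of several transcripts of a gene was not run, since each clock gene had 1 transcript.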
